A study of Rattus norvegicus with 9 samples.

Results

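The comparison described here is that of the vestibular epithelium of rats exposed to 3,3′-iminodipropionitrile (IDPN) for 3 weeks with that of control rats. It used 6 of the 9 libraries of the series, chosen by their labels, 3 of the IDPN-3wk group and 3 controls. IDPN is a nitrile that damages vestibular hair cells (HCs), and the 3-week exposure is the shorter of the 2 exposures in the experiment. The IDPN-3wk rats were male Long-Evans rats that drank water with 20 mM IDPN for 3 weeks, and the controls were male Long-Evans rats that drank water without it. Each library held RNA from 1 rat, pooled from its utricles and cristae, so the regions of the epithelium cannot be separated. Per the methods of the study, the single control group mixed animals killed at the 3-week and at the 7-week time. The controls are thus not all of the age of the IDPN-3wk rats, and the age in this experiment is not given in the sources used here. The libraries followed the SMARTseq2 method for small inputs, which primes on poly(A) tails and amplifies the cDNA. The comparison asks which transcripts had changed early, before the main loss of HCs, and the account below centres on genes other than HC and interferon genes.

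Utricles and cristae hold HCs of type I and type II, each with a bundle of stereocilia and, in the vestibular organs, a lasting kinocilium, a true cilium with an axoneme of microtubules. Supporting cells surround the HCs, hold them in place and secrete the otolithic membrane and the cupula, gels that load the bundles. Around the sensory patch lie transitional and dark cells, and below it run afferent axons, whose calyces wrap type I HCs, with Schwann cells, fibroblasts, vessels and macrophages.

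Markers of HCs and of supporting cells were detected. Summed over 19 HC markers, the level was 8635 to 9261 CPM (counts scaled to a common library size) in the controls and 5145 to 6136 CPM in the IDPN-3wk rats, and 5 of the 19 were called lower. Over 20 supporting cell markers it was 20097 to 21160 CPM and 14283 to 17856 CPM, and 1 of the 20 was called lower. Both sums lean on 1 gene. Spp1, an HC marker called lower, was at 4805 to 5574 CPM in controls and 2626 to 3236 CPM in IDPN-3wk rats. Otog, a supporting cell marker that was not called, was at 8340 to 8545 CPM and 3541 to 5710 CPM. In bulk tissue, fewer cells of a type and less RNA per cell cannot be told apart. Library totals were 31100118 to 38044824 counts. When all libraries were thinned to the lowest total, 15387 to 15506 genes were detected in control replicate 3 and in replicates 1 and 2 of the IDPN-3wk group, while the other 3 libraries of the comparison had 16838 to 17119. These 3 libraries, below called the libraries with fewer genes, hold both groups, and results are given within them too.

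Of 15517 genes tested, 256 were differentially expressed genes (DEGs), called at an adjusted p under 0.05 by the quasi-likelihood test of edgeR with Benjamini-Hochberg adjustment and a fold change above 1.5. This is 1.65% of the genes tested. Of these, 188 genes were lower (1.21%) and 68 higher (0.438%) after 3 weeks, while with only the libraries with fewer genes for the 2 groups, 27 were called lower and 43 higher. Most changes were moderate, with 119 of the downregulated and 40 of the upregulated genes past 2-fold, and 30 and 7 past 4-fold. The levels of the 2 groups did not overlap for any of the 256 genes, and 19.6% of all genes tested had such separate groups. The call thus asks for more than separate groups. With separate groups, the direction of change within the libraries with fewer genes and within the others was fixed in advance. The shared direction of the 256 genes is therefore no check on the library sets. The number of DEGs rested on single libraries, since it was 75 without control replicate 2, 77 without control replicate 1, 168 without control replicate 3 and 439 without IDPN-3wk replicate 3. It was 118 when the IDPN-7wk libraries, which share in the estimate of the spread, were left out, and 741 (4.78%) with DESeq2.

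**Figure D1:**
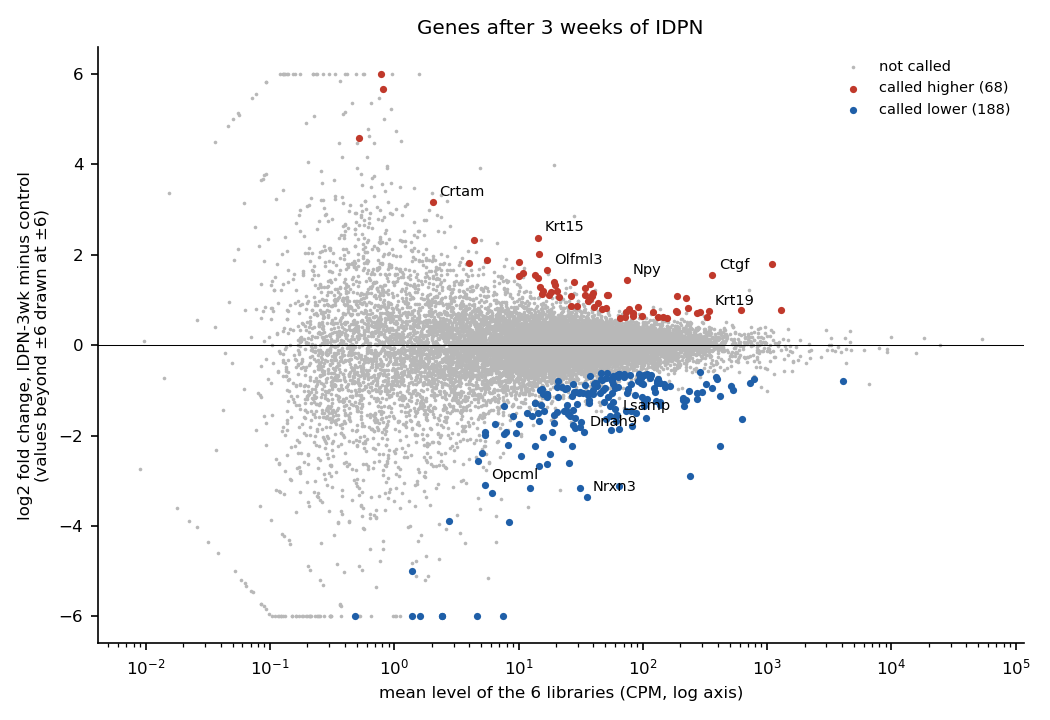
Each point is 1 of the 15517 genes tested, with its mean level in the 6 libraries (CPM, log axis) on the x axis and the log2 fold change of IDPN-3wk against control on the y axis, fitted by edgeR; red and blue mark the 68 DEGs that were higher and the 188 that were lower, and values past the ends of the axis are drawn at its ends. Of the 256 called genes, 159 lie more than 1 log2 unit from 0, and more lie below 0 than above.

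The upregulated genes described first had the smallest adjusted p once HC genes, interferon genes and genes named in an earlier account were set aside. Npy, which encodes neuropeptide Y, was at 37.4, 42.1 and 39.8 CPM in control replicates 1 to 3 and at 130, 90.3 and 104 CPM in IDPN-3wk replicates 1 to 3. The lowest treated rat was more than 2 times above the highest control, and the log2 fold change was 1.44 ± 0.16 (SE, n = 3 per group, edgeR adjusted p = 0.00207). Cavin2, a coat protein of caveolae, had 132, 126 and 99.6 CPM in the controls and 240, 259 and 265 CPM after 3 weeks. Its log2 fold change was 1.09 ± 0.12 (edgeR adjusted p = 0.00207), and it was called under each of the 15 alternative settings in which it was tested. Ass1, the argininosuccinate synthase of arginine and urea metabolism, was at 24.6, 23.4 and 25.7 CPM in controls and 50.0, 45.0 and 49.3 CPM in treated rats (0.97 ± 0.13, edgeR adjusted p = 0.00679). The 3 rats of each group lay close together for Ass1.

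Both named glutathione transferases and the thiolase Acaa2 rose. The glutathione transferase Gstm1 was at 144, 134 and 136 CPM in controls and 264, 210 and 224 CPM in IDPN-3wk rats (log2 fold change 0.75 ± 0.11, edgeR adjusted p = 0.00863). A second glutathione transferase, Gstt2, was at 26.7, 30.0 and 30.8 CPM and at 57.1, 51.9 and 47.2 CPM (0.84 ± 0.13, edgeR adjusted p = 0.0119). Separate groups were a condition for naming both genes. Acaa2, the thiolase of the last step of mitochondrial fatty acid oxidation, had 32.7, 34.2 and 34.7 CPM in controls and 64.2, 61.2 and 52.2 CPM after 3 weeks (0.81 ± 0.12, edgeR adjusted p = 0.0121). It was the 1 gene called of 24 tested in fatty acid oxidation (4.17%, against 1.65% of all genes tested), whose median was 0.04. Chosen after their values were seen, 4 other upregulated DEGs with a role in the handling of aldehydes, sulfation or thiols were the aldehyde dehydrogenase Aldh3a1 (log2 fold change 0.63), the aldehyde oxidase Aox3 (1.07), the sulfotransferase Sult5a1 (0.71) and the methanethiol oxidase Selenbp1 (1.27). Pathway lists gave a narrower picture. Of 23 targets tested of NRF2, the transcription factor of the antioxidant response, only Gstm1 was called, 18 lay above 0 and the median log2 fold change was 0.19, against -0.00 over all genes tested. Nqo1, a quinone reductase of that list, had a log2 fold change of 1.17 that did not pass the test (edgeR adjusted p = 0.0606). Of 25 genes of xenobiotic and cyanide metabolism, Aldh3a1 was the one called, with a list median of 0.03. Called genes made up 4.35% of the NRF2 list and 4% of the xenobiotic list, against 1.65% of all genes tested. Tst, the rhodanese that turns cyanide into thiocyanate, had a log2 fold change of 0.45 that was not called (edgeR adjusted p = 0.0683).

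The keratins Krt15 and Krt19, the tubulin Tubb6 and the claudins Cldn4 and Cldn23 were higher. Krt15, a keratin of basal and stratified epithelia, was at 5.61, 4.82 and 3.43 CPM in controls and at 14.5, 29.1 and 28.6 CPM after 3 weeks (log2 fold change 2.38 ± 0.34, edgeR adjusted p = 0.00884). IDPN-3wk replicate 1 had less of it than the other 2 treated rats but more than every control. Krt19, a keratin of simple epithelia, was steadier, at 255, 235 and 267 CPM and at 429, 432 and 420 CPM (0.76 ± 0.12, edgeR adjusted p = 0.0122). Tubb6, a beta tubulin, was at 19.5, 26.1 and 20.1 CPM and at 46.1, 55.2 and 40.0 CPM (1.11 ± 0.17, edgeR adjusted p = 0.0123), and Fam110c, a protein linked to centrosomes and microtubules, at 6.82, 4.79 and 4.61 CPM and at 18.6, 18.2 and 12.4 CPM (1.60 ± 0.24, edgeR adjusted p = 0.0112). Of 51 genes of wounded and barrier epithelium, 5 were called higher (Krt15, Anxa1, Krt19, S100a4 and Tgm2) and 1 lower (S100a13), and the median was 0.40. Called genes made up 11.8% of this list, against 1.65% of all genes tested. Without control replicate 1, and likewise without control replicate 2, 1 gene of this list was called higher, and 0 were called when only the libraries with fewer genes stood for the 2 groups. In differences of mean log2(CPM + 2), the list median was 0.17 within the libraries with fewer genes and 0.18 within the others. Of 45 epithelial junction genes, the claudins Cldn23 and Cldn4 were called higher and none lower, which is 4.44% of the list. At an unadjusted p under 0.05, 14 were higher (7.12% of all genes tested) and 2 lower (8.63%), and the median was 0.15. None of the 45 was called without control replicate 1, without control replicate 2 or with only the libraries with fewer genes. Cldn4, a claudin that tightens the paracellular seal, was at 89.8, 81.1 and 104 CPM in controls and 153, 168 and 136 CPM in treated rats. Cldn23 was at 8.39, 9.08 and 14.1 CPM and at 25.2, 33.3 and 24.8 CPM. Beside these genes, Bsnd, the barttin subunit of chloride channels and a dark cell marker, rose from 24.8, 16.7 and 22.0 CPM to 55.8, 48.5 and 57.0 CPM. The other 10 tested markers of dark cells and transitional epithelium were not called, their median with Bsnd was -0.05, their summed level was 1407 to 1747 CPM in controls and 1108 to 1228 CPM in treated rats, and Foxi1 of that list was at 0 in all libraries. The part of a change in cell makeup in these results was not tested.

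**Figure D2:**
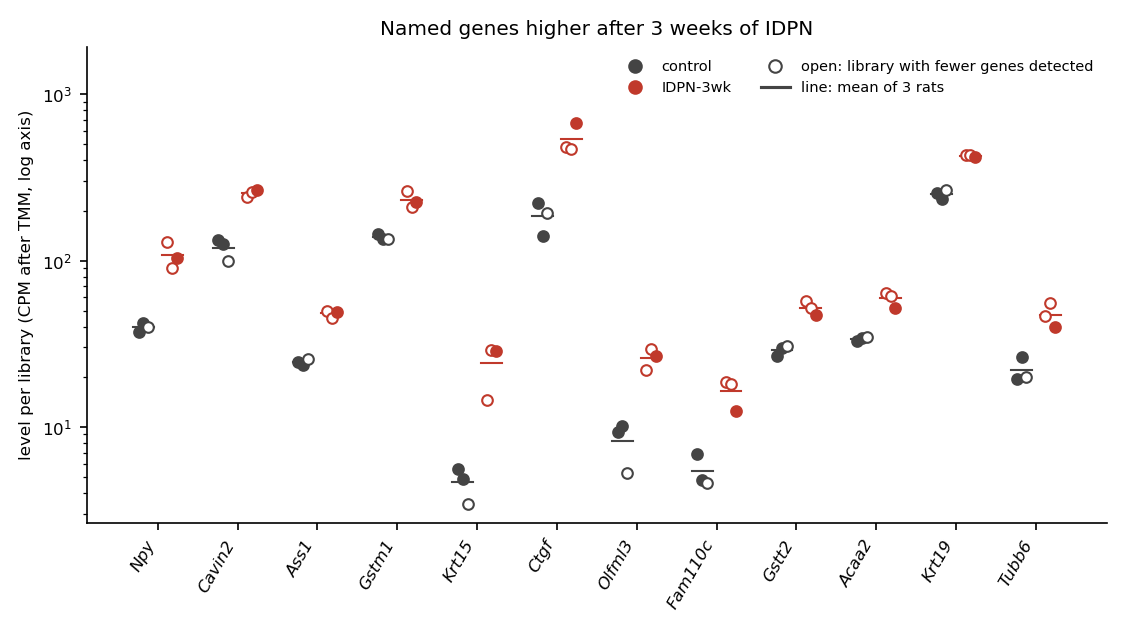
Level of the 12 upregulated genes ranked first by adjusted p after HC, interferon and earlier named genes were set aside, in CPM on a log axis, for each of the 3 controls (grey) and 3 IDPN-3wk rats (red); open circles are the libraries with fewer genes and lines the mean of 3 rats. Every red point lies above the grey points of its gene, as was required for naming and as held for every called gene.

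Ctgf (connective tissue growth factor, now named Ccn2), a secreted matricellular protein and a known target of the YAP and TEAD factors, was at 223, 140 and 194 CPM in controls and at 481, 470 and 672 CPM after 3 weeks (log2 fold change 1.54 ± 0.22, edgeR adjusted p = 0.00908). The groups were far apart, with all treated rats more than 2 times above the highest control. Its promoter is shown because TEAD factors bind the letters GGAATG, which are in capitals where a search of both strands found them in the 250 bases before and 50 bases after the RefSeq start (build GRCr8, chr1:22624565-22624864, minus strand, 5′ to 3′ of the gene).
Ccn2: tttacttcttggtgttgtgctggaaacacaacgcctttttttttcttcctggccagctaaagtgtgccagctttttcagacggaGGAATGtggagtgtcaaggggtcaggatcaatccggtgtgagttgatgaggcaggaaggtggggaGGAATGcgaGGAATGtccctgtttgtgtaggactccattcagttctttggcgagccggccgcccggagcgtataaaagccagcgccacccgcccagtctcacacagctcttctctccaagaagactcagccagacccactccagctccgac
These 3 matches begin 166, 101 and 92 bases before the start, and 15.0% of the 27457 genes with such windows have at least 1 match. A match is a description of the letters and no evidence of binding. Of 22 tested YAP and TEAD targets, 2 were called higher, Ctgf and the coagulation initiator F3 (tissue factor, 0.84). This is 9.09% of the list, against 1.65% of all genes tested. In the list, 11 genes lay above 0 and 11 below, and the median was -0.03.

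Olfml3, a secreted olfactomedin-like protein, was at 9.28, 10.1 and 5.26 CPM in controls and at 22.0, 29.5 and 26.5 CPM in treated rats (log2 fold change 1.66 ± 0.25, edgeR adjusted p = 0.0112). Other upregulated DEGs of the extracellular space, chosen after their values were seen, were Mgp, the matrix Gla protein that restrains calcification (1.12), Tgfbi, a matrix protein induced by TGF-beta (0.62), Pcolce, an enhancer of procollagen cleavage (0.64), Ecm1 (1.10) and Aebp1 (0.65). Of 14 tested fibroblast markers, Mgp was the one called, 7 lay above 0 and 7 below, and the median was -0.04. Their summed level was 17683 to 18374 CPM in controls and 18854 to 22318 CPM in treated rats. Most of it was Coch, which was not called, at 16848 to 17552 CPM and 17853 to 21368 CPM. The sum thus says little about the other markers. Signalling proteins were likewise chosen after their values were seen, except Wnt2b, a called list member. Csf1, the growth factor of macrophages, was at 9.01, 11.6 and 8.27 CPM and at 24.0, 17.7 and 24.6 CPM (1.20 ± 0.20, edgeR adjusted p = 0.0174). The summed level of 15 macrophage markers in the same rats was 227 to 350 CPM in controls and 118, 460 and 188 CPM in IDPN-3wk replicates 1 to 3, so the groups overlapped, and none of the 15 was called. Il1r2, the decoy receptor of interleukin 1, was at 34.6, 31.8 and 32.4 CPM and at 55.7, 72.5 and 85.1 CPM (1.11 ± 0.17, edgeR adjusted p = 0.0125). Tnfrsf11b, the decoy receptor osteoprotegerin, had a log2 fold change of 0.83, the secreted hormone Stc1 one of 2.01 and the ligand Wnt2b one of 1.12.

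The downregulated genes included genes of the motile axoneme. Hydin, a protein of the central pair of microtubules, was at 74.4, 80.9 and 72.8 CPM in controls and at 24.3, 28.7 and 20.6 CPM after 3 weeks (log2 fold change -1.63 ± 0.15, edgeR adjusted p = 0.000817). Dnah9, a heavy chain of the outer dynein arm, was at 47.1, 59.3 and 52.4 CPM and at 16.7, 11.6 and 13.7 CPM (-1.92 ± 0.19, edgeR adjusted p = 0.00158). Every treated rat was below every control by more than 2 times for both genes. Of 63 tested genes of the axoneme and of ciliary motility, 11 were called lower and none higher, 50 lay below 0 and 13 above, and the median was -0.50. The called genes were 17.5% of this list, against 1.21% of all genes tested called lower. Besides Hydin and Dnah9, those with the smallest p were Spag6l of the central pair (-1.80), Cfap77 (-1.25) and Cfap44 (-1.44). Drc1 of the nexin-dynein complex (-0.96), the dynein heavy chains Dnah2 (-1.73) and Dnah7 (-1.05), Cfap69 (-1.05), Cfap43 (-1.04) and the tektin Tekt3 (-0.93) were also called. The set was called lower for 10 of its members with the library set as a covariate (1.06% of all genes were called lower in that fit) and for 4 to 11 when single libraries were left out, but for 1 when only the libraries with fewer genes stood for the 2 groups. None of the 46 genes of intraflagellar transport and basal bodies, which build every cilium, was called by edgeR, and 4 were called lower by DESeq2. As 1.21% of all genes tested were called lower by edgeR, 0 calls in a list of this size is close to the general share. At an unadjusted p under 0.05, 7 of the 46 were lower (8.63% of all genes tested) and 0 higher (7.12%), and the list median was -0.05. Of 76 microtubule motors and structural microtubule-associated proteins, Tubb6 was called higher and the dendritic protein Map2 lower (-0.96), with a median of -0.05. This is 2.63% of that list, against 1.65% of all genes tested. Beside the axoneme genes, the 19 HC markers had a median log2 fold change of -0.47, and the part of HC number in the axoneme result was not tested.

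**Figure D3:**
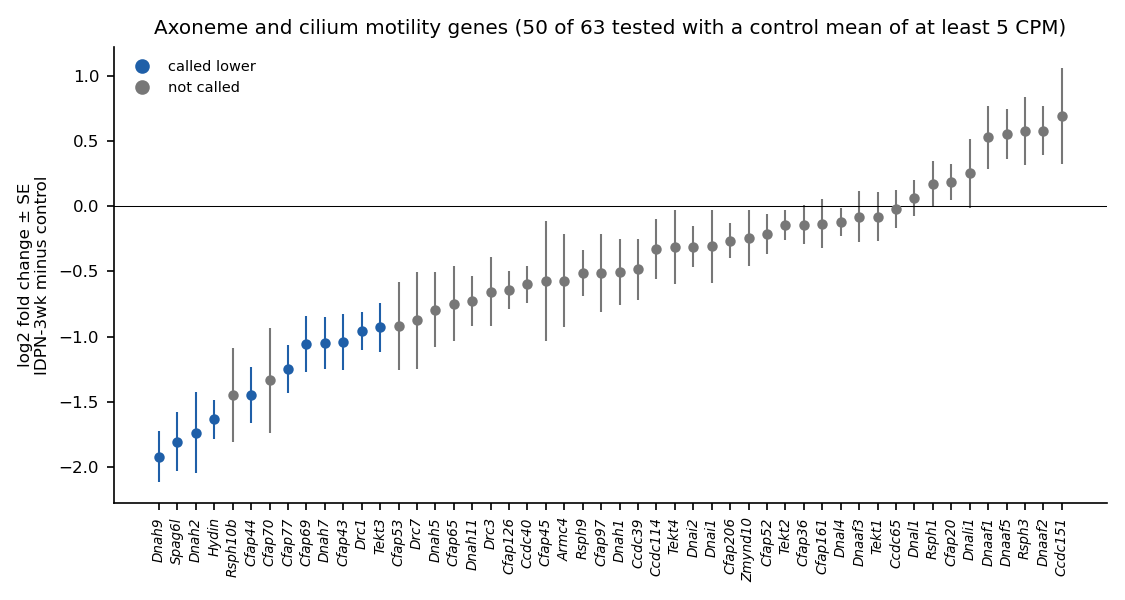
Log2 fold change ± SE of IDPN-3wk against control (edgeR) for the 50 of 63 tested axoneme and cilium motility genes with a control mean of at least 5 CPM, in order of size; blue marks the 11 genes called lower. Of the 50 genes drawn, 41 lie below 0, and no gene above 0 was called.

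Promoters of 2 of these genes are shown because factors of the RFX family, known regulators of cilium genes, bind X-box elements with the half-site GTTGCC. Capitals mark that half-site or its reverse complement GGCAAC, and the windows are those of RefSeq on GRCr8, 5′ to 3′ of the gene, for Hydin (chr19:55146216-55146515, plus strand) and Spag6l (chr11:97677590-97677889, plus strand).
Hydin: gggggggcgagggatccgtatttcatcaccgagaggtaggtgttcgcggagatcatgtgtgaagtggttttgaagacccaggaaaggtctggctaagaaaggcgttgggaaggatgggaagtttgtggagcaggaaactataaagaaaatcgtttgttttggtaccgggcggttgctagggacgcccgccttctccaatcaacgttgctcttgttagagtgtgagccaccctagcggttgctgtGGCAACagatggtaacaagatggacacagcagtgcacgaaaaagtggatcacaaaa
Spag6l: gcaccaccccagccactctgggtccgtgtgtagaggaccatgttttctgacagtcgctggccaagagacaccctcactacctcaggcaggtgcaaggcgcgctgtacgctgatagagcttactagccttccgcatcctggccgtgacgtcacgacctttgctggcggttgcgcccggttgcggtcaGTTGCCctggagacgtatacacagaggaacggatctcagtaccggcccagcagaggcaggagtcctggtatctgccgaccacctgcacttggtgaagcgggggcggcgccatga
The match begins 6 bases before the start in Hydin and 64 in Spag6l. Both promoters shown are thus of genes with a match. A match was found for 6 of the 11 genes called lower (Cfap44, Cfap69, Dnah2, Drc1, Hydin and Spag6l), and Dnah9 was not among them. It was found for 18 of the 53 tested members of the axoneme list with a window (34.0%), and for 13.1% of the 27457 genes with windows. The motif was searched on both strands, and a match is no evidence of binding.

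Lower levels were also measured for several adhesion molecules of synapses and of the immunoglobulin superfamily. Lsamp, a GPI-anchored adhesion molecule of the IgLON family, was at 91.2, 96.9 and 86.8 CPM in controls and at 31.5, 30.2 and 30.4 CPM after 3 weeks (log2 fold change -1.58 ± 0.12, edgeR adjusted p = 0.000461). The 3 treated rats differed little, and Lsamp, like Cavin2, was called in all 15 alternative settings. Opcml, another IgLON, was at 8.39, 10.3 and 10.4 CPM and at 0.300, 1.52 and 1.57 CPM (-3.10 ± 0.61, edgeR adjusted p = 0.0346). Its call was less steady, made in 6 of the 15 alternative settings. Nrxn3, a presynaptic neurexin, fell from 67.0, 74.4 and 51.4 CPM to 8.23, 4.11 and 6.40 CPM (-3.36 ± 0.29, edgeR adjusted p = 0.000758), a 10.3-fold difference. Shank2, a postsynaptic scaffold, was at 85.8, 86.6 and 71.8 CPM and at 28.1, 32.3 and 21.7 CPM (-1.57 ± 0.17, edgeR adjusted p = 0.00196). Apba1, an adaptor of exocytosis, was at 673, 662 and 664 CPM and at 327, 376 and 365 CPM (-0.91 ± 0.09, edgeR adjusted p = 0.00168). Of 53 synaptic adhesion and scaffold genes, Nrxn3, Shank2 and the latrophilin Adgrl3 were called lower and none higher, with 35 below 0 and a median of -0.25. Of 35 genes of the immunoglobulin superfamily and contactins, Lsamp, Cntn1 and Opcml were called lower and none higher, with a median of -0.35. Of 70 axon guidance genes, the semaphorins Sema5a (-1.33) and Sema6d (-0.85) were called lower, with 49 below 0 and a median of -0.22. In the order given, 5.66%, 8.57% and 2.86% of these lists were called, against 1.65% of all genes tested. The share for axon guidance is thus close to that of all genes. With only the libraries with fewer genes for the 2 groups, 0, 1 and 0 genes of these 3 lists were called lower.

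Genes of glutamate and inhibitory synapses, chosen after their values were seen, were also among the DEGs. The AMPA receptor subunit Gria2 was at 79.0, 82.0 and 83.8 CPM in controls and at 35.9, 26.1 and 40.2 CPM in treated rats (log2 fold change -1.26 ± 0.21, edgeR adjusted p = 0.0175). Gria4, another AMPA receptor subunit, had a log2 fold change of -1.46, the kainate receptor auxiliary subunit Neto1 one of -2.40 and gephyrin, Gphn, one of -1.07. The receptors Erbb4 (-2.24) and Ntrk2 (-0.76), the ankyrin Ank3 of axon membrane domains (-1.06) and dystrophin, Dmd (-0.87), were lower too. Beside them, 2 of 19 markers of neurons and axons were called lower, Isl1 (-0.72) and Snap25 (-1.58), and none higher. The summed level of these 19 markers was 313 to 357 CPM in controls and 242 to 254 CPM in treated rats. This sum leans on the 2 called genes. Isl1 was at 109 to 133 CPM in controls and 68.2 to 75.2 CPM in treated rats, and Snap25 at 32.8 to 44.3 CPM and 9.78 to 18.6 CPM. Of the 19 markers, 10 lay below 0 and 9 above. Their median was -0.20, with 6 lower and 3 higher at an unadjusted p under 0.05. Of 17 Schwann cell markers, Cdh19 was called lower, and the sums overlapped, at 14082 to 16534 CPM and 11960 to 14976 CPM. The part of neurons and Schwann cells in these results was not tested.

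**Figure D4:**
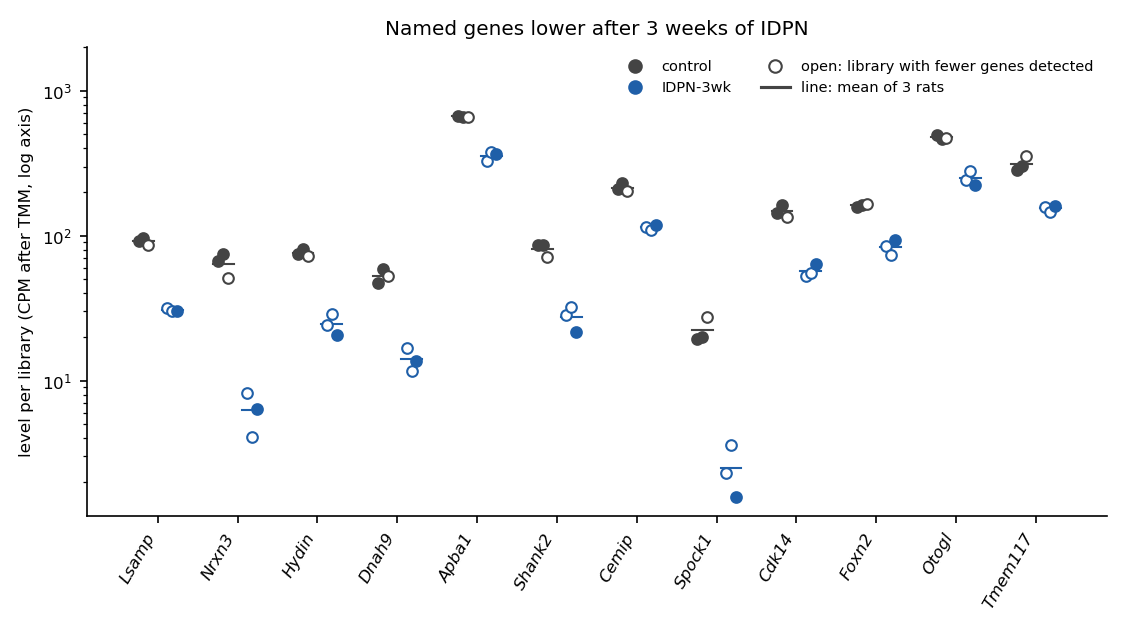
Level of the 12 downregulated genes ranked first by adjusted p after the same genes were set aside, in CPM on a log axis, for each of the 3 controls (grey) and 3 IDPN-3wk rats (blue); open circles are the libraries with fewer genes and lines the mean of 3 rats. Blue points lie below grey points for every gene, as was required for naming. Nrxn3 and Spock1 have the widest gaps.

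A gene family that stood out by its summed level, and was chosen for that after its values were seen, was that of the clustered beta protocadherins, single-exon adhesion molecules that give cells different surface identities. Summed over the 17 genes listed as Pcdhb in the table, which does not depend on how reads were divided among near-identical members, the level was 96.1, 86.5 and 86.7 CPM in control replicates 1 to 3. It was 3.16, 18.8 and 12.4 CPM in IDPN-3wk replicates 1 to 3 and 3.97 to 6.10 CPM in the IDPN-7wk rats. The groups are far apart, and the treated libraries differ widely among themselves. Of 15 tested members, 4 were called lower (Pcdhb5, Pcdhb10, Pcdhb19 and Pcdhb20) and none higher, and 14 lay below 0. Over all genes tested, 1.21% were called lower. Pcdhb20 was at 13.7, 10.2 and 20.4 CPM in controls and at 0, 0.236 and 0.338 CPM after 3 weeks, and Pcdhb10 was at 1.65, 2.41 and 4.28 CPM and at 0 in all 3 treated rats. In IDPN-3wk replicate 1, 14 of the 15 tested members were at 0. Values of single members are uncertain because the genes resemble each other closely. The 12 gamma protocadherins (Pcdhga and Pcdhgb), summed in the same way, were at 137 to 165 CPM in controls and 79.5 to 117 CPM in treated rats, and none of them was called.

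Otogl, Cemip, Spock1 and Nell1 were lower after 3 weeks. Otogl, otogelin-like, a glycoprotein of the acellular gels over the HCs, was at 498, 462 and 475 CPM in controls and at 241, 281 and 225 CPM after 3 weeks (log2 fold change -0.94 ± 0.11, edgeR adjusted p = 0.00273). The related Otog was not called (-0.86 ± 0.21, edgeR adjusted p = 0.0759), and Otoa passed the test but not the fold threshold (-0.56 ± 0.11, edgeR adjusted p = 0.0301). Beside them, 16 of the 20 supporting cell markers lay below 0, with a median of -0.30, and 5 were lower and 1 higher at an unadjusted p under 0.05. The part of supporting cells in these results was not tested. Cemip, which takes part in the breakdown of hyaluronan, was at 211, 229 and 202 CPM and at 115, 110 and 119 CPM (-0.90 ± 0.10, edgeR adjusted p = 0.00196). Spock1, a testican proteoglycan, fell from 19.5, 19.9 and 27.7 CPM to 2.32, 3.57 and 1.57 CPM (-3.17 ± 0.35, edgeR adjusted p = 0.00207), and Nell1, a secreted thrombospondin-like protein, from 24.1, 30.2 and 32.6 CPM to 2.59, 5.25 and 6.24 CPM (-2.63 ± 0.37, edgeR adjusted p = 0.00850). Both genes were far lower in every treated rat than in any control. The collagen genes Col9a1 (-0.75) and Col27a1 (-1.34) and the chemokine Cxcl12 (-1.42), chosen after their values were seen, were lower. Of 41 TGF-beta and activin genes, Ltbp1 (-1.13), which stores latent TGF-beta, Ltbp2 (-1.55) and the BMP antagonist Grem1 (-1.10) were called lower. Tgfbi was called higher, and the list median was -0.00. In this list 9.76% of the genes were called, against 1.65% of all genes tested.

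Kinases, transcription factors and membrane proteins completed the named downregulated genes. Cdk14, a cyclin-dependent kinase of WNT signalling, was at 144, 163 and 134 CPM in controls and at 52.8, 55.7 and 63.9 CPM in treated rats (log2 fold change -1.35 ± 0.15, edgeR adjusted p = 0.00207). Foxn2, a forkhead transcription factor, was at 159, 164 and 166 CPM and at 85.0, 73.6 and 93.5 CPM (-0.95 ± 0.11, edgeR adjusted p = 0.00220). The groups were well apart for both genes. Tmem117, a multipass membrane protein, was at 283, 303 and 352 CPM and at 158, 145 and 159 CPM (-1.02 ± 0.12, edgeR adjusted p = 0.00279). Of 54 KLF and nuclear receptor genes, Klf12 (-0.90), the retinoid receptor genes Rxra (-1.27) and Rarb (-0.71) were called lower and none higher, with a median of -0.07. Of 30 FGF and ERK feedback genes, Etv5 (-0.71) was called lower. Of 55 ion pump ATPases, Atp2b2 and the flippase Atp8a1 (-0.73) were called lower, while 0 of 287 solute carrier genes were called in either direction by edgeR, with 16 higher and 22 lower at an unadjusted p under 0.05 and 4 and 7 called by DESeq2. Called members were 5.56% of the KLF and nuclear receptor genes, 3.33% of the FGF and ERK feedback genes and 3.64% of the ion pump ATPases. Over all genes tested, the share called was 1.65%. Genes of RNA processing chosen after their values were seen were the splicing kinase Clk1 (-0.66), Rsrp1 (-0.84), Leng8 (-1.18), Smg1 of nonsense-mediated decay (-0.63) and Zfc3h1 of nuclear RNA turnover (-1.13).

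The other genes named for the size of their fold change were at low levels. Of the alternative settings that tested them, Miip and Mamdc4 were called in 9 of 14, Crtam in 6 of 14 and Htr3a in 4 of 14. Def6 was called in 6 of 15 and Ano2 in 4 of 15. Miip had 0 counts in all 3 controls and 2.29, 0.808 and 1.63 CPM in IDPN-3wk replicates 1 to 3, so that it was at least 56.9-fold higher against a floor of 3 counts over the control group (edgeR adjusted p = 0.0130). Htr3a, a subunit of the serotonin-gated channel, was at 0.0809, 0 and 0 CPM in controls and 1.91, 2.29 and 0.553 CPM in treated rats (edgeR adjusted p = 0.0459). Its control value rests on 3 counts, and the fold was not given for that reason. Crtam, an immune adhesion receptor, was at 0.405, 0.626 and 0.197 CPM and at 5.91, 1.78 and 3.35 CPM (log2 fold change 3.16 ± 0.65, edgeR adjusted p = 0.0405), and Def6, an exchange factor of lymphocytes, at 1.46, 1.57 and 1.38 CPM and at 4.58, 12.1 and 5.32 CPM (2.32 ± 0.47, edgeR adjusted p = 0.0384). Over 13 lymphocyte markers the summed level was 15.6 to 17.6 CPM in controls and 10.0 to 15.8 CPM in treated rats, 2 of them were at 0 in all 6 libraries, and none of the 4 tested was called. Mamdc4, an endosomal glycoprotein, fell from 3.32, 2.32 and 2.45 CPM to 0.0545, 0.0337 and 0.154 CPM (8 counts in all 3 treated rats against 284 in controls, 32.1-fold lower in the fit, edgeR adjusted p = 0.0159), and Ano2, a calcium-activated chloride channel, from 7.64 to 15.4 CPM in controls to 0.438 to 1.51 CPM in treated rats (-3.26 ± 0.70, edgeR adjusted p = 0.0491). Treated levels of these 2 genes were small and varied between rats, and separate groups were a condition for naming them.

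Pathways of cell stress, growth and hormone response showed few called genes. Over all genes tested, 7.12% had an unadjusted p under 0.05 in the upward direction and 8.63% in the downward. Of 22 unfolded protein response genes, none was called, but 20 lay below 0, 8 had an unadjusted p under 0.05 in that direction and the median was -0.23. Hspa5, the main chaperone of the endoplasmic reticulum, passed the test with a change under the fold threshold (-0.58 ± 0.11, edgeR adjusted p = 0.0277). Of 25 cholesterol biosynthesis genes, none was called, 21 lay below 0, 5 had an unadjusted p under 0.05 in that direction and 1 in the other, and the median was -0.15. Of 28 ribosome biogenesis genes, none was called, 22 lay above 0, 6 had an unadjusted p under 0.05 in that direction and the median was 0.25. Among 27 proliferation genes, none was called, 21 lay above 0, 1 with an unadjusted p under 0.05, and the median was 0.31, and the marker of dividing cells Mki67 differed by -0.90 on the log2 scale (edgeR adjusted p = 0.366). No gene was called among 23 of the integrated stress response, 21 p53 targets, 24 immediate early genes, 19 hypoxia-inducible genes, 27 glucocorticoid-responsive genes, 18 genes of heavy metal and iron handling, 17 genes of fatty acid synthesis and 55 G protein and RGS genes. The medians of these 8 lists lay between -0.10 and 0.21. At an unadjusted p under 0.05, the first 4 of them held 4, 3, 4 and 0 genes in the upward direction and 1, 2, 0 and 4 in the downward, and the last 4 held 1, 4, 1 and 0 and 2, 1, 1 and 3. Of these 12 lists without an edgeR call, 6 had none with DESeq2 either, while DESeq2 called 3 genes of metal handling, 1 proliferation gene and 1 immediate early gene higher, and 1 gene each of cholesterol biosynthesis, p53 targets and the glucocorticoid response lower. Atf3, a stress-induced transcription factor of the integrated stress response list, differed by -0.05 on the log2 scale (edgeR adjusted p = 0.967). The remaining lists held 1 called gene each, or 2, while 1.65% of all genes tested were called. Bhlhe40 (-0.64) was called of 21 circadian clock genes, Txnip (0.78) of 25 of glycolysis and glucose transport, and H3f3b (0.78) of 20 histone genes. Acaa2 of fatty acid oxidation is given above. Wnt2b was called of 53 WNT pathway genes (1.89%) and Adam11 (-2.23) of 55 matrix protease and inhibitor genes (1.82%), both close to the share of all genes. The study lists Adam11 as HC-selective and names it under cell adhesion. Lbp (1.04) and Serping1 (0.74) were called of 21 acute phase and secreted defence genes. With the library set as a covariate, 0 genes of the clock and WNT lists were called.

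**Figure D5:**
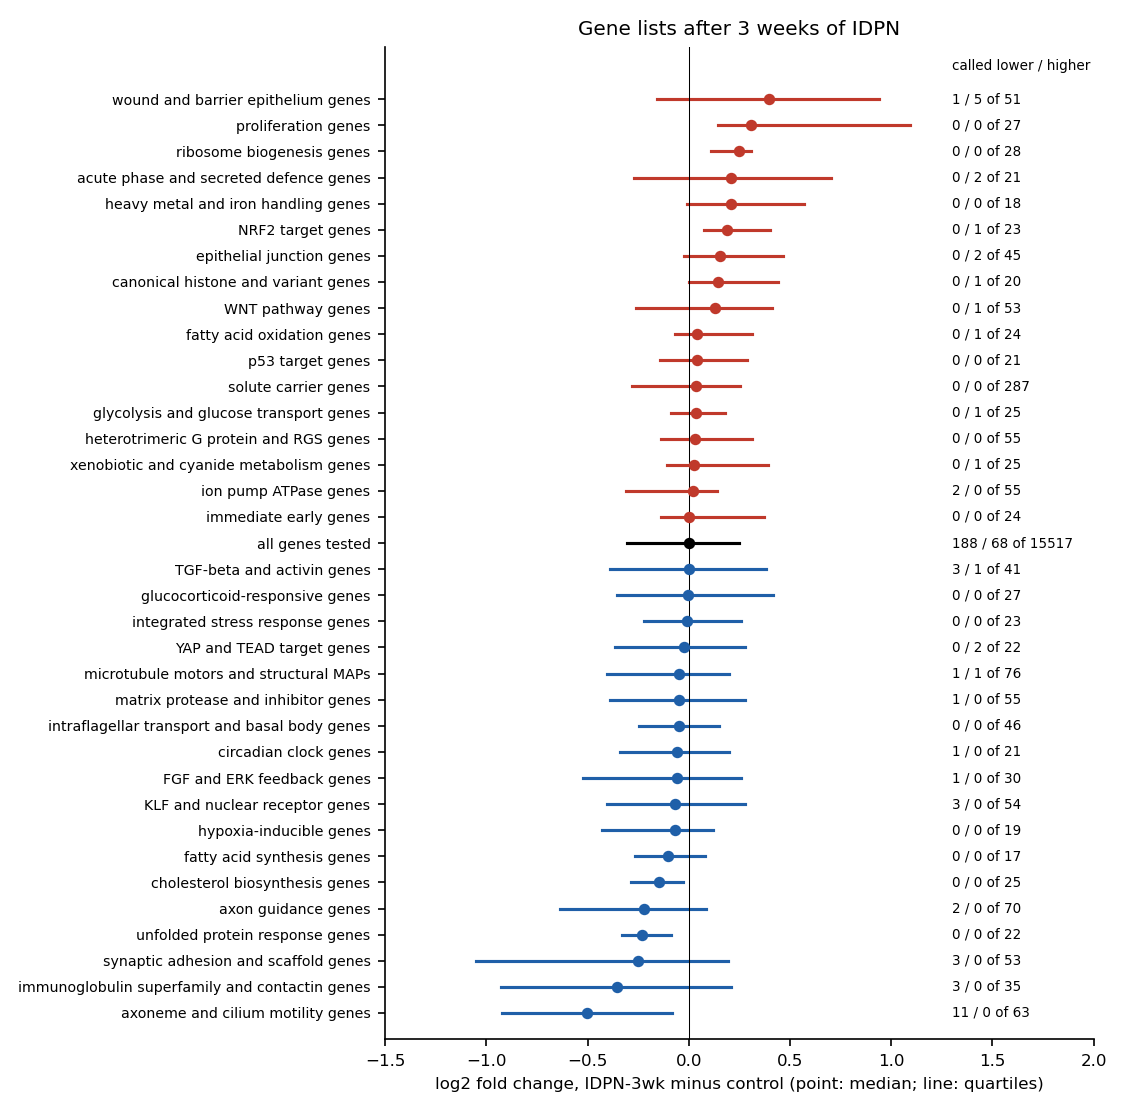
Median (point) and quartiles (line) of the log2 fold change of IDPN-3wk against control for 35 gene lists and for all genes tested (black), with the number of members called lower and higher at the right. The axoneme list lies lowest, with a median of -0.50 and 11 of 63 called lower, and the wound and barrier epithelium list highest, at 0.40 with 5 of 51 called higher.

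Whether the 3-week changes went on was tested directly between the 2 exposed groups. At equal depth, 17177 to 17309 genes were detected in the IDPN-7wk libraries, against 15506, 15387 and 16838 in IDPN-3wk replicates 1 to 3. No IDPN-7wk library was thus among those with fewer genes, and exposure time cannot be fully told apart from the library set in this test. Of all genes, 75 (0.483%) were called between IDPN-7wk and IDPN-3wk, and 10 of the 256 genes of the 3-week comparison were among them. Of 5 such genes that were higher at 3 weeks, 4 were higher still and 1 lower at 7 weeks, and of 5 that were lower at 3 weeks, 4 were lower still and 1 higher. Among the 32 genes named by p or size of change, Ctgf alone was called, at 1582, 984 and 1262 CPM in IDPN-7wk replicates 1 to 3, a further log2 difference of 1.24 (edgeR adjusted p = 0.0434). Of the other genes given above, Sema5a (-1.03) and Pcdhb19 (-2.43) were called lower at 7 than at 3 weeks. Krt15 was at 53.1, 55.4 and 93.6 CPM at 7 weeks, a further 1.48 that was not called (edgeR adjusted p = 0.0869). Npy, at 103, 107 and 135 CPM at 7 weeks, differed from 3 weeks by 0.09 ± 0.15 (edgeR adjusted p = 0.868), Hydin, at 23.2, 23.3 and 26.3 CPM, by -0.02 (edgeR adjusted p = 0.978), and Nrxn3, at 5.72, 8.45 and 8.84 CPM, by 0.29 (edgeR adjusted p = 0.698). Acaa2 was at 43.2, 39.1 and 41.9 CPM at 7 weeks, between the controls and the 3-week rats, with a log2 difference from 3 weeks of -0.52 that was not called (edgeR adjusted p = 0.116). A missed threshold does not show that the levels at the 2 times were equal.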

How the data were processed

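The authors mapped the reads with STAR 2.5.3a to the rat genome Rnor6.0 and estimated counts per gene with RSEM, for which the submitters' processing notes name version 1.3.0. The deposited table gives estimated counts (RSEM expected counts) as whole numbers for 32883 genes with no normalization. The strand setting is not given in the sources used here, so overlapping and antisense genes are uncertain. All columns of the table were used, and 4258 entries share a symbol with another. At the depths of the compared libraries, 3 counts in a library correspond to 0.0789 to 0.0965 CPM. Reads carry no molecular identifiers, so this limit covers counting error only.

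Genes were kept by filterByExpr (15517), normalized by TMM and compared with edgeR 4.0.16 by its robust quasi-likelihood test (R 4.3.3) in one fit of all 9 libraries with a mean per group (6 residual degrees of freedom), with Benjamini-Hochberg adjustment and thresholds of 0.05 and 1.5-fold. Values with ± are a log2 fold change and its SE. The pipeline was tested on simulated data with known changes. The members and lists were chosen with earlier results of these data known, so lists are described by counts and medians without a test. Within the libraries with fewer genes and within the others, differences are of mean log2(CPM + 2).

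Named genes were, in each direction, the 12 DEGs with the smallest adjusted p and then the 4 with the largest fold change, with a mean of at least 1 CPM in either group, separate groups and a full symbol, and without HC genes, interferon genes and genes named in an earlier account. Called members of lists were named in order of p. Alternatives were DESeq2 1.42.0, RLE size factors, no filter, a minimum of 10 counts, only the 6 libraries, the library set as a covariate, other fold thresholds and each library left out. Replicate numbers were assigned here in accession order. The samples come from separate rats. The 3 controls share the leading number of their titles, which no exposed rat has, so it cannot be told apart from exposure. It varies within both exposed groups, with 1 number in both, and entered no fit. Promoter windows are from RefSeq on GRCr8, a build other than that of the counts, so no position was joined to a count.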

Additional observations from a re-analysis of the deposited data

Results flagged for a closer look

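The direct test between the exposed groups cannot fully tell exposure time apart from the library set. In it, the change from 3 to 7 weeks differed from 0 for 10 genes of the 3-week comparison. Given as log2 fold changes of IDPN-7wk against IDPN-3wk, 5 of them were lower at 7 weeks, namely Pcdhb19 (-2.43), Qpct (-1.08), Sema5a (-1.03), Spp1 (-0.999) and Scg5 (-0.79). The other 5 were higher, namely Tmem176a (0.95), Ctgf (1.24), Ifitm3 (1.28), Il17rb (2.85) and Selplg (8.64). Qpct, the glutaminyl cyclase that closes the ends of some peptide hormones, was higher than control at 3 weeks and was the only upregulated gene of the 10 to fall again by 7 weeks. Il17rb, a receptor of interleukin 25, was at 12.7, 10.6 and 13.7 CPM in controls and 30.7, 24.8 and 29.7 CPM at 3 weeks. Selplg, a selectin ligand of leukocytes, was at 1.43, 0.564 and 0.929 CPM in controls and at 0 in all 3 IDPN-3wk libraries, so its fitted value depends on the prior count and is no bound.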

How the results depend on the processing

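The 256 calls (188 lower, 68 higher) became 741 (515, 226) with DESeq2, 118 (97, 21) with only the 6 libraries, and 159 (119, 40) at a fold change above 2. Alternatives chosen after seeing the data gave 58 (48, 10) with only the 6 libraries and the library set as a covariate, 219 (172, 47) without the libraries with fewer genes, and 70 (27, 43) without the control and IDPN-3wk libraries with more genes. In the last, 1 control was left, 38.6% of calls were lower in place of 73.4%, and 19 of the 70 were among the 256. Leaving out single libraries gave 75 to 439 calls (60 to 322 lower, 14 to 117 higher), with 75 (61, 14) without control replicate 2, 77 (60, 17) without control replicate 1, 168 (126, 42) without control replicate 3, 192 (149, 43) without IDPN-3wk replicate 2 and 439 (322, 117) without IDPN-3wk replicate 3. The cause was not tested. RLE size factors, no filter, a minimum of 10 counts, the library set as a covariate and no fold threshold gave 220 to 319. Of the 32 named genes, 4 were still called with only the libraries with fewer genes for the 2 groups, 17 with only the 6 libraries and the library set as a covariate, 20 with only the 6 libraries, 22 without the libraries with fewer genes and 19 to 31 with single libraries left out. None reversed, which separate groups had largely fixed in advance. Of 35 list medians, 20 kept their sign in all 15 alternatives. No paired analysis was possible because the replicate numbers were assigned here and the labels carry none.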

Other observations

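Myh4, a fast myosin of skeletal muscle, was at 16.4, 3.26 and 0.760 CPM in control replicates 1 to 3, at 54.0, 55.1 and 39.2 CPM in IDPN-3wk replicates 1 to 3, and at 157, 143 and 161 CPM in the IDPN-7wk rats. Its log2 fold change at 3 weeks was 2.85 ± 0.74 and was not called (edgeR adjusted p = 0.0931). Other muscle markers were at or near 0 in the same libraries. Ckm and Tnnt3 were at 0 in all 3 IDPN-3wk rats, and Acta1 was at 1.09, 0 and 0.0307 CPM. Over 5 hemoglobin and erythroid symbols the summed level was 225 to 275 CPM in controls and 319 to 404 CPM in IDPN-3wk rats, with no member called. In both cases the groups did not overlap, and the part of blood or muscle in any result of the comparison was not tested.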
